A study of Mus musculus with 3 samples.

Results

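Neuropeptide Y (gene Npy) and its receptors Npy1r, Npy2r and Npy5r were followed across the neurons and neighbouring cells of mouse atrial ganglia. The 4 genes were taken by symbol from the 30406 genes that 3 single-cell RNA libraries shared. Each library held fluorescent cells sorted from dissociated atrial ganglia of adult mice carrying Baf53b-cre;lox-GFP, in which a recombinase driven by the Baf53b (Actl6b) gene, a subunit of the neuronal chromatin remodelling complex, switches on GFP. One library came from the anterior section of the atria (labelled age 3 months), 1 from the posterior section (4 months) and 1, labelled heart atria with no section (2 months), is taken here as the pooled, mixed ganglia that the protocol describes. The labelled ages of the 2 sections differ, yet both titles begin with the same characters, which may be a date. Cells of several mice, females and males, were combined in each, every library carried the transgenes, and there was no untreated or wild type control. No source used here says whether the libraries share animals, and each was sorted on fluorescence, so cells other than neurons in them are those that passed the sort.

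NPY is a secreted peptide stored in dense-core vesicles of autonomic neurons, where it is released beside noradrenaline or acetylcholine. Its receptors couple to inhibitory Gi/o proteins, lower cyclic AMP, open GIRK potassium channels and close N-type calcium channels. In the cardiovascular system the Y1 receptor (Npy1r) on vascular smooth muscle is known for vasoconstriction. The Y2 receptor (Npy2r) on autonomic nerve endings is known for restraining the release of transmitter, acetylcholine from vagal endings included. The Y5 receptor (Npy5r) is best known from hypothalamic feeding circuits. Pancreatic polypeptide is the preferred ligand of the Y4 receptor (Npy4r).

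The genes lie at chr6:49822710-49829507 (Npy, plus strand), chr8:66697192-66706792 (Npy1r, plus strand), chr3:82538383-82548084 (Npy2r, minus strand) and chr8:66679965-66688128 (Npy5r, minus strand) on GRCm38. In GENCODE vM21 all are protein coding and no annotated gene overlaps any of them on either strand. Npy1r and Npy5r point away from each other with 9063 bases between them. The coding sequence of the Npy transcript (GENCODE vM21) is shown because its message was detected in 97.6%, 96.8% and 95.3% of neurons of the anterior, posterior and mixed library. It has 294 bases, with 97 codons before the stop, and its 108 capital bases encode the 36 residues of the mature peptide.
Npy coding sequence: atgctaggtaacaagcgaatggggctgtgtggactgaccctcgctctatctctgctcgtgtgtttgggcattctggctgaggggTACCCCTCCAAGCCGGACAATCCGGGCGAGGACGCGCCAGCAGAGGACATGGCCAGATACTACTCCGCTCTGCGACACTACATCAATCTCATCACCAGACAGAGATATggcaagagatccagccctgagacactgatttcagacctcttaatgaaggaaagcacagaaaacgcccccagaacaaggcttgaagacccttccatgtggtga

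The promoters of the ligand and of the pair of receptors that differed between neuron subtypes are shown from 250 bases before to 50 bases after the RefSeq gene start, on the gene's own strand (RefSeq, GRCm38.p6). Each promoter was searched on both strands for the core promoter letters TATAAA, the GC box GGGCGG, the cAMP response element TGACGTCA, the E-box CACGTG and the AP-1 site TGANTCA. No 2 matches overlapped. Capitals mark the matches found.
Npy promoter (chr6:49822460-49822759, plus strand): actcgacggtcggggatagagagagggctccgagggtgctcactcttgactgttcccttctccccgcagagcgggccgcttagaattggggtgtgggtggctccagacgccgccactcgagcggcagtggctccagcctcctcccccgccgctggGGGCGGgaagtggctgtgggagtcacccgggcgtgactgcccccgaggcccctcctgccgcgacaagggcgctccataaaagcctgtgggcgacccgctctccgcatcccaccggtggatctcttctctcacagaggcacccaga
Npy1r promoter (chr8:66697172-66697471, plus strand): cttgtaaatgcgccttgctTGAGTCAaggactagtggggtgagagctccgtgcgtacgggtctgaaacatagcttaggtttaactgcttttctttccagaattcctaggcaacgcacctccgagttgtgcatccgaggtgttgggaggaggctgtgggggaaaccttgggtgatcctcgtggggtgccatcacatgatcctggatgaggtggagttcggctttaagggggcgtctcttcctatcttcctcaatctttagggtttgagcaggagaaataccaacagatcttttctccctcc
Npy2r promoter (chr3:82548036-82548335, minus strand): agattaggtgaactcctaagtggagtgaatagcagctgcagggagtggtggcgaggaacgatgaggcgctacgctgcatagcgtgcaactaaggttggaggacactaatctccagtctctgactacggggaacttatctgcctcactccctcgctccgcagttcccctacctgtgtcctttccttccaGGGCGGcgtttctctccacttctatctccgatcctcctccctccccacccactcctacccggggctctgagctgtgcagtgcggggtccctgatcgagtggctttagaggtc
Npy and Npy2r each had a GC box, at -95 and -62 from the start, which 35.7% of 32851 mouse promoters of this length also held. Npy1r had no GC box in this window and had an AP-1 match at -231, present in 7.81% of promoters. The GENCODE start of Npy1r (66697192) lies inside this window, before the RefSeq start, so these Npy1r positions depend on the annotation. Their GC content was 68% for Npy, 51.7% for Npy1r and 57.7% for Npy2r, beside a median of 52.7% over all promoters. The other motifs had no match in these 3 windows, and the matches describe letters only.

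Levels are counts of unique molecular identifiers (UMIs, 1 per captured molecule) per 10000 UMIs of the barcodes summed. The libraries held 2256 (anterior), 3276 (posterior) and 2829 (mixed) barcodes and 55329380, 86391988 and 119825307 UMIs. Neurons were barcodes with at least 10000 UMIs and with Snap25, Prph and Stmn2 detected. There were 1315, 1447 and 1998 of them, with median depths of 39854, 57151 and 57062.5 UMIs. Barcodes with at least 1 UMI per 10000 of Ddah1, Nos1 or Edn3, and below 1 for the other 2 genes, formed 3 subtypes. Neurons below 1 for all 3 genes are called the remaining neurons, and 12, 26 and 6 neurons at or above 1 for more than 1 gene were left out of the subtypes. Other classes were gated by marker genes. Libraries shared 3, 2 and 3 barcode sequences pairwise, and at most 1 of these was a neuron in both. Glial marker RNA was present in every neuron group, at 1.36 to 2.37 UMIs per 10000 in the anterior, 0.355 to 2.09 in the posterior and 2.92 to 4.36 in the mixed library.

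Most cardiac neurons carried abundant Npy RNA, Nos1 neurons carried the most, and most Ddah1 neurons carried little. The Ddah1 subtype was defined with its low Npy already known from these libraries. Nos1 makes nitric oxide, and Ddah1 degrades a natural inhibitor of its synthesis. In Nos1 neurons, 81 anterior, 54 posterior and 53 mixed barcodes, Npy stood at 70.8, 75.3 and 82.3 UMIs per 10000. The remaining neurons, 946, 769 and 1438 barcodes, had 47.7, 44.5 and 49.7. Every library of Nos1 neurons lay above every library of remaining neurons. Npy in Edn3 neurons was nearly the same in each library at 42.2, 43.1 and 42.8 UMIs per 10000, from 121, 65 and 86 barcodes. These 3 values fell just under the lowest of the remaining neurons. Ddah1 neurons, 155, 533 and 415 barcodes, had 8.65, 5.70 and 5.06 UMIs per 10000 and stood apart from all other neurons.

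**Figure D1:**
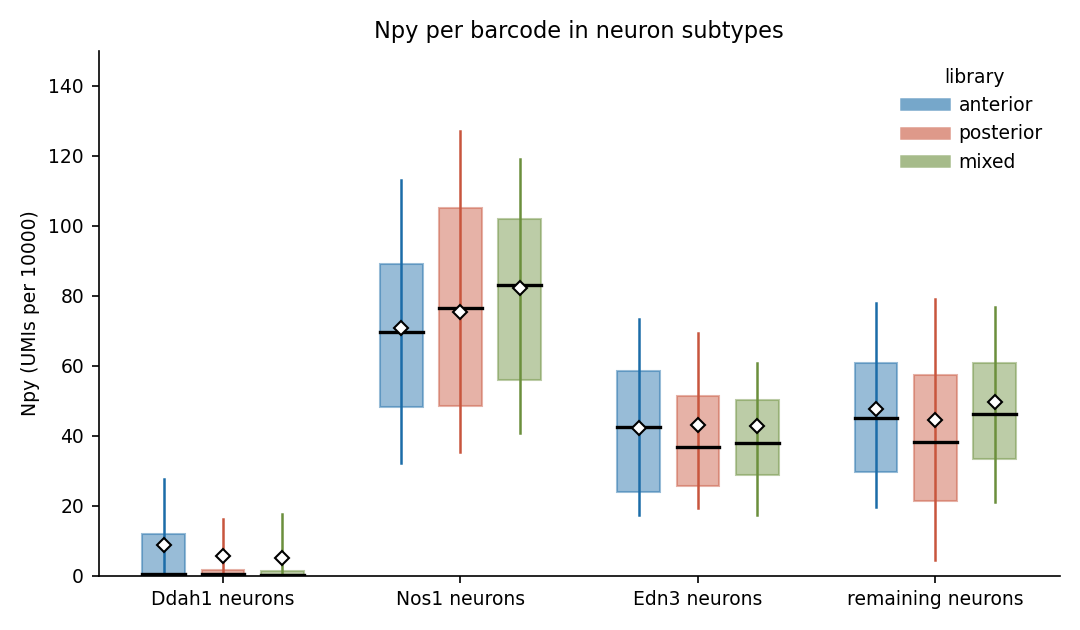
Npy in UMIs per 10000 (vertical axis) for barcodes of 4 neuron subtypes in 3 libraries; boxes run from the 25th to the 75th percentile, black lines are medians, thin lines run from the 10th to the 90th percentile and diamonds are the summed level. Ddah1 neurons have medians of 0.611, 0.589 and 0.294, against 45, 38.3 and 46.2 in the remaining neurons.

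Ordered by the mean over libraries, Npy was highest in Nos1 neurons (76.1 ± 5.77 UMIs per 10000, SD, n = 3), followed by the remaining neurons (47.3 ± 2.66), Edn3 neurons (42.7 ± 0.47), whose difference did not pass the test below, and Ddah1 neurons (6.47 ± 1.91). The 3 fold changes below share the remaining neurons of the same libraries. By edgeR's quasi-likelihood test on counts summed per library and subtype, with the library as a block, Npy was lower in Ddah1 neurons by a log2 fold change of -2.89 (SE 0.15, Benjamini-Hochberg adjusted p = 8.62e-10). Of 12069 genes tested there, 16.7% were called in either direction, 8.05% higher and 8.63% lower. That is 2014 calls, or 1069 without the posterior library. The fold change depended on the subtype limit: it was -2.20 with 0.5 and -4.05 with 2 Ddah1 UMIs per 10000.

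Npy was higher in Nos1 neurons by 0.65 on the log2 scale (SE 0.14, edgeR adjusted p = 0.00606), where 7.71% of genes were called, 4.7% higher and 3.02% lower. That call was lost without the posterior library (0.60, adjusted p = 0.143) and with no library block (0.65, adjusted p = 0.205). The 931 genes called in Nos1 neurons became 451 without the anterior and 573 without the posterior library. In Edn3 neurons the fold change of Npy was -0.20 (SE 0.14, adjusted p = 0.312), and it passed the test only at the limit of 2 Edn3 UMIs per 10000 (-0.37, adjusted p = 0.00853). The calls in Edn3 neurons made up 23.6% of genes (14.3% higher, 9.27% lower), or 2850, and numbered 786, 718 and 4421 without the anterior, posterior and mixed library.

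Within Ddah1 neurons Npy was split between a large part near 0 and a smaller part with clear expression. Fewer than 1 Npy UMI per 10000 was found in 92 of 155 anterior (59.4%), 366 of 533 posterior (68.7%) and 298 of 415 mixed Ddah1 neurons (71.8%). Among the remaining neurons this held for 12 (1.27%), 41 (5.33%) and 10 barcodes (0.695%), and among all Nos1 and Edn3 neurons for 1 mixed Nos1 barcode. At least 10 Npy UMIs per 10000 were found in 46, 70 and 67 Ddah1 neurons. The Ddah1 neurons below 10 had summed levels of 0.816, 0.978 and 0.662 UMIs per 10000 by this choice. Glia-like barcodes of the same libraries, which are far shallower, had 1.68, 1.68 and 1.02. At the other end, 14 anterior (17.3%), 17 posterior (31.5%) and 14 mixed Nos1 neurons (26.4%) reached 100 UMIs per 10000. Among the remaining neurons 36 (3.81%), 30 (3.9%) and 45 (3.13%) did.

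**Figure D2:**
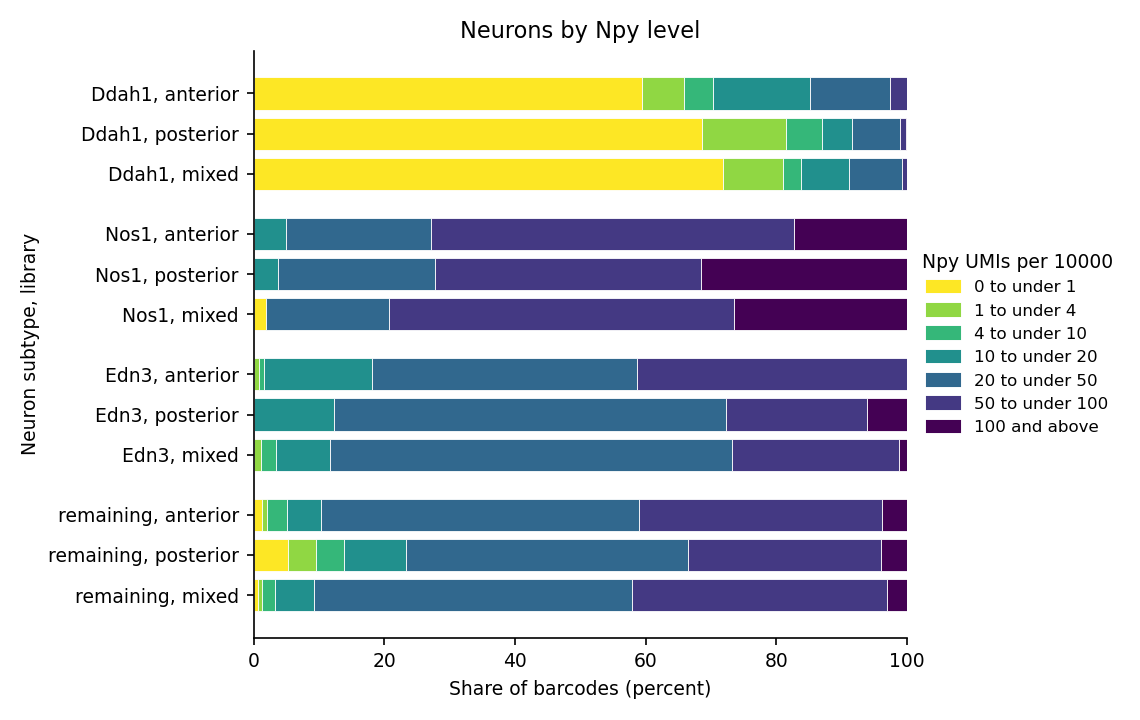
Share of barcodes (percent, horizontal axis) in 7 ranges of Npy level for each neuron subtype and library. Ddah1 neurons are dominated by the range below 1 UMI per 10000 (59.4% to 71.8%), while the other subtypes lie mostly above 20.

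Detection also set Ddah1 neurons apart once depth was held equal. After each barcode was thinned to 2000 UMIs, Npy was detected in 36.8%, 25.1% and 23.1% of Ddah1 neurons in the anterior, posterior and mixed library, against 96.5%, 90.4% and 97.8% of the remaining neurons. Nos1 (100%, 100% and 98.1%) and Edn3 neurons (97.5%, 100% and 95.3%) were near full detection, so this share does not order them. Unthinned, the shares were 81.3%, 93.4% and 79% in Ddah1 neurons and 99.7%, 98.4% and 99.5% in the remaining neurons. Glia-like barcodes, which should lack the gene, showed it in 28.2%, 34% and 14.1% after thinning, which kept the 78 of 106, 100 of 105 and 64 of 81 barcodes deep enough. Unthinned shares there were 39.6%, 58.1% and 27.2% at median depths of 2898.5, 5991 and 3352 UMIs. The share in Ddah1 neurons was above the glial one in the anterior and mixed library and below it in the posterior library. Glia-like barcodes were far shallower before thinning, so their share cannot serve as a background for Ddah1 neurons. Detection of a single UMI is not read as expression there. The summed posterior level in Ddah1 neurons, 5.70 UMIs per 10000, was above the 1.68 of glia-like barcodes. Of its 18294 Npy UMIs, 15688 came from the 70 barcodes with at least 10 Npy UMIs per 10000. The other 463 posterior Ddah1 neurons stood at 0.978 UMIs per 10000, from 2606 Npy UMIs at a median depth of 58765. The 105 posterior glia-like barcodes held 108 Npy UMIs at a median depth of 5991. With depths so unlike, these levels do not show whether Npy in such Ddah1 neurons exceeds stray RNA. The remaining neurons, 71.9%, 53.1% and 72% of neurons, held 78.6%, 74.5% and 86.4% of all neuronal Npy UMIs. Ddah1 neurons, 11.8%, 36.8% and 20.8% of neurons, held 2.44%, 7.67% and 2.68%.

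Among neurons, Npy2r, the release-restraining receptor, had its highest mean level in Edn3 and its lowest in Ddah1 neurons. The 3 libraries held 909, 1294 and 1488 Npy2r UMIs in neurons, in 39.7%, 39.7% and 39.2% of them. At 10000 UMIs per barcode these shares were 16.7%, 13.8% and 12.1%. Other classes held between 0 and 2 UMIs each, and glia-like barcodes 0, 1 and 0, so the gene did not pass the filter for the comparison of classes. Upper 95% limits were 59.1%, 54.1% and 92.2% of the neuron level in glia-like barcodes and 61%, 42.1% and 79.3% in fibroblast-like barcodes. In endothelial-like and macrophage-like barcodes they lay above the neuron level in each library (166% to 405%), so a difference from neurons was not detectable at this depth there. Edn3 neurons had 0.361, 0.399 and 0.268 UMIs per 10000 in the anterior, posterior and mixed library, against 0.161, 0.216 and 0.143 in the remaining neurons. The groups did not overlap. Nos1 neurons had 0.279, 0.279 and 0.258, also above all libraries of the remaining neurons, and Ddah1 neurons 0.0554, 0.0424 and 0.0225, below all of them.

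Npy2r averaged 0.343 ± 0.0673 UMIs per 10000 in Edn3 and 0.272 ± 0.0119 in Nos1 neurons (SD, n = 3 libraries), which overlapped, then 0.173 ± 0.0379 in the remaining and 0.0401 ± 0.0166 in Ddah1 neurons. Against the remaining neurons, the log2 fold change was 0.93 in Edn3 neurons (SE 0.12, edgeR adjusted p = 7.57e-05), with 14.3% of genes called higher. It was -2.29 in Ddah1 neurons (SE 0.14, adjusted p = 4.58e-09), and -3.19 at the limit of 2 Ddah1 UMIs per 10000. In Nos1 neurons it was 0.61 (SE 0.15, adjusted p = 0.0161). The Nos1 call was lost without the anterior (0.52, adjusted p = 0.134) and without the mixed library (0.53, adjusted p = 0.0789). With no library block the adjusted p was 0.14 in Edn3 and 0.395 in Nos1 neurons.

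Within libraries the ratio of Edn3 to remaining neurons was 2.24, 1.85 and 1.87, and that of Ddah1 to remaining neurons 0.344, 0.196 and 0.157. Intervals given with levels, ratios and shares are exact 95% intervals that cover counting error only. For the anterior Edn3 ratio the interval was 1.9 to 2.64, and for the anterior Ddah1 ratio 0.237 to 0.484. At 10000 UMIs per barcode, Npy2r was detected in 28.9%, 27.7% and 26.7% of Edn3 neurons, against 14.6%, 16.5% and 11.4% of the remaining neurons. In Ddah1 neurons it was detected in 5.16%, 1.5% and 1.69%. Edn3 neurons made up 9.2%, 4.49% and 4.3% of neurons and held 21.5%, 13.2% and 12.2% of neuronal Npy2r UMIs.

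Inside the Ddah1 subtype, Npy2r went with Npy. Ddah1 neurons with at least 10 Npy UMIs per 10000 had 0.109, 0.158 and 0.0836 Npy2r UMIs per 10000, against 0.0303, 0.0188 and 0.00928 in those below 10. The counting intervals of the 2 parts did not meet in any library. Npy1r ran the other way, at 0, 0.0129 and 0.00903 in Ddah1 neurons with at least 10 Npy UMIs per 10000, against 0.0256, 0.0413 and 0.0278 below 10. For Npy1r the counting intervals were separate in the posterior library and met in the anterior and mixed libraries. Median depths were 41084, 78002.5 and 64241 UMIs at or above 10 Npy UMIs per 10000, against 41135, 58765 and 59476 below it. Barcodes holding RNA of more than 1 neuron were not removed, and the part of depth in these splits was not tested.

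**Figure D3:**
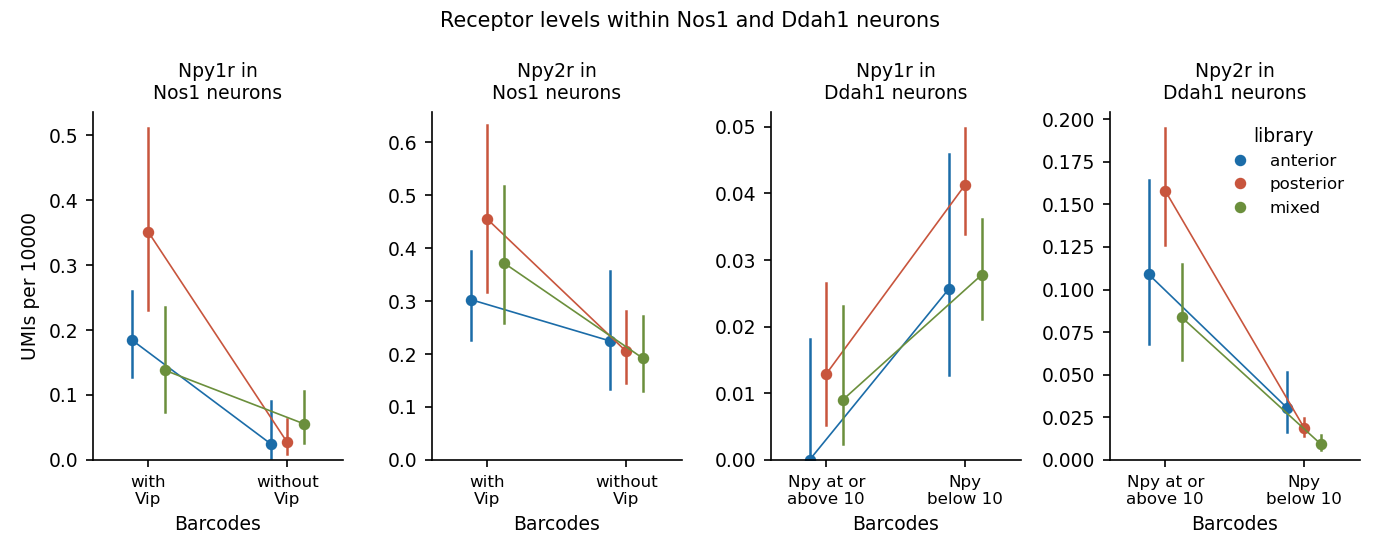
Npy1r and Npy2r levels (UMIs per 10000, vertical axes from 0) in Nos1 neurons with and without Vip and in Ddah1 neurons at or above and below 10 Npy UMIs per 10000; points are libraries and bars exact 95% counting intervals. Npy1r is higher in Nos1 neurons with Vip in each library. Npy2r is higher in Ddah1 neurons at or above 10 Npy UMIs per 10000 in each library.

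Among neurons, Npy1r stood out in the Nos1 subtype. Nos1 neurons had 0.136, 0.122 and 0.086 UMIs per 10000 (35, 32 and 22 UMIs) in the anterior, posterior and mixed library. The remaining neurons had 0.0163, 0.0243 and 0.0148 (60, 97 and 121 UMIs). Each Nos1 library was above each library of remaining neurons, by ratios of 8.33 (5.33 to 12.8), 5.03 (3.26 to 7.57) and 5.82 (3.51 to 9.21). The edgeR log2 fold change was 2.60 (SE 0.25, adjusted p = 1.92e-06) and ran from 2.35 to 2.77 with 1 library left out. With it, 3 of the 4 genes of the NPY family that could be tested were higher in Nos1 neurons, where 4.7% of all genes were.

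Npy1r was detected in 28.4%, 33.3% and 30.2% of Nos1 neurons, against 5.6%, 9.62% and 7.02% of the remaining neurons. Thinned to 10000 UMIs, the shares were 6.17%, 16.7% and 11.3% in Nos1 and 1.06%, 2.08% and 1.88% in the remaining neurons. Nos1 neurons, 6.16%, 3.73% and 2.65% of neurons, held 31.2%, 12.3% and 10.4% of neuronal Npy1r UMIs. The 23, 18 and 16 Nos1 barcodes with an Npy1r UMI carried mural marker RNA at 0.0754, 0.0825 and 0.026 UMIs per 10000, with Myh11 at 0 in each library. Nos1 barcodes with no Npy1r UMI carried 0.0448, 0.00564 and 0.0335, and mural-like barcodes 425, 366 and 414.

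In the Nos1 subtype most Npy1r UMIs came from barcodes that also carried RNA of the peptide gene Vip. Those with at least 1 Vip UMI per 10000 (58, 19 and 22 barcodes) had 0.185, 0.351 and 0.138 Npy1r UMIs per 10000, from 33, 27 and 13 UMIs. Those without (23, 35 and 31 barcodes) had 0.025, 0.027 and 0.0556, from 2, 5 and 9 UMIs. Counting intervals were separate in the anterior (0.127 to 0.26 with Vip, 0.00303 to 0.0905 without) and posterior library (0.231 to 0.511 and 0.00877 to 0.063). They met in the mixed library (0.0736 to 0.236 and 0.0254 to 0.106). Npy itself had no common direction, at 71.9, 69 and 62.4 UMIs per 10000 with Vip, against 68.4, 77.9 and 93.8 without. Npy2r was 0.303, 0.455 and 0.372 with Vip and 0.225, 0.205 and 0.192 without.

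Ddah1 and Edn3 neurons showed no called difference in Npy1r. Ddah1 neurons had 0.0174, 0.0365 and 0.0245 UMIs per 10000, which overlapped the remaining neurons. The log2 fold change was 0.58 (SE 0.21, edgeR adjusted p = 0.0768) and passed the test at the limit of 2 Ddah1 UMIs per 10000 (0.68, adjusted p = 0.036). Edn3 neurons had 0.0111, 0.0257 and 0.00737, from 6, 11 and 5 UMIs, with a log2 fold change of -0.47 (SE 0.33, adjusted p = 0.325). Ddah1 neurons, 11.8%, 36.8% and 20.8% of neurons, held 9.82%, 45% and 28.9% of neuronal Npy1r UMIs. Their ratios to the remaining neurons within libraries were 1.07 (0.508 to 2.06), 1.5 (1.14 to 1.99) and 1.66 (1.2 to 2.27).

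**Figure D4:**
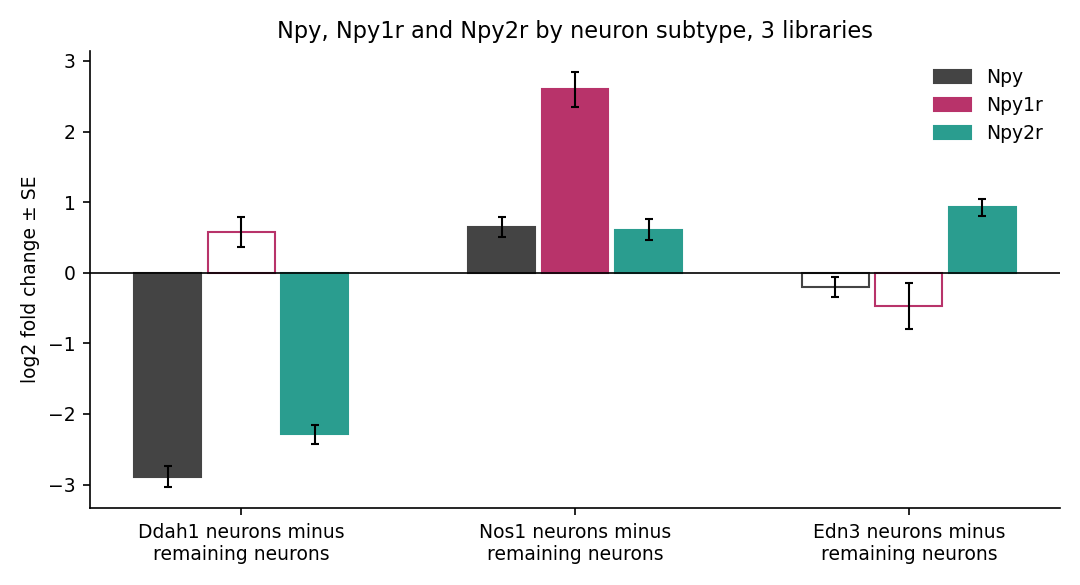
Log2 fold change (± SE) of Npy, Npy1r and Npy2r in each neuron subtype against the remaining neurons of the same 3 libraries, by edgeR; filled bars passed the adjusted p threshold of 0.05 and open bars did not. Npy and Npy2r are lower in Ddah1 neurons, all 3 genes are higher in Nos1 neurons, and Npy2r alone passes the test in Edn3 neurons.

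Npy5r was practically undetected. The 3 libraries together held 1 Npy5r UMI, in a remaining neuron of the mixed library, so it entered no test. With no UMI in 1315 anterior and 1447 posterior neurons, levels up to 0.000578 and 0.000372 UMIs per 10000 could not be seen at these depths. Of the rest of the family, Npy4r had 373, 615 and 647 UMIs in neurons and levels of 0.0719, 0.0763 and 0.0555 UMIs per 10000. Its library means lay between 0.0619 ± 0.0157 in Edn3 and 0.072 ± 0.0173 in Nos1 neurons (SD, n = 3), and none of its contrasts passed the test. In the marker-gated classes of at least 10 barcodes it had 2 UMIs, in 1 mural-like barcode of the mixed library. Peptide YY (Pyy) had 6, 29 and 10 UMIs in neurons. Pancreatic polypeptide (Ppy) and Npy6r had 0.

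The strongest Npy1r signal in these ganglia was outside neurons, in cells gated by smooth muscle and pericyte markers. Leading genes of these mural-like barcodes, 23 anterior, 27 posterior and 89 mixed, included Acta2, Tagln and Myh11, which are gate markers themselves. Myh11 was found in 100%, 92.6% and 100% of them. The gate markers Rgs5 (17.4%, 51.9% and 28.1%) and Pdgfrb (65.2%, 55.6% and 43.8%) were found in fewer, and pericytes were not told apart from smooth muscle. Mural-like barcodes had 1.68, 1.75 and 1.16 Npy1r UMIs per 10000 (22, 37 and 54 UMIs), against 0.0216, 0.0323 and 0.0181 in neurons. The groups were far apart, with ratios of 77.7 (46.8 to 124), 54.2 (37.3 to 76.7) and 64 (46.5 to 86.6). The edgeR log2 fold change was 5.94 (SE 0.40, adjusted p = 6.15e-09) and ran from 5.81 to 5.89 with 1 library left out. In this comparison 51.2% of 9027 genes were called and 24.7% were higher. Npy1r was detected in 47.8%, 48.1% and 42.7% of mural-like barcodes. At 2000 UMIs per barcode the shares were 39.1%, 29.6% and 26.8%, against 0.76%, 0.553% and 0.501% of neurons and 0% of glia-like barcodes in each library. Thinning kept every neuron and 23, 27 and 82 mural-like barcodes.

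Fibroblast-like barcodes had a lower Npy1r level of 0.0868, 0.168 and 0.0824 UMIs per 10000, from 3, 18 and 3 UMIs. Their log2 fold change against neurons was 2.17 (SE 0.52, edgeR adjusted p = 0.00173), in a comparison with 60.7% of genes called. Without the posterior library it was 1.85 (adjusted p = 0.0584). Epithelial-like barcodes had 0.456 UMIs per 10000 in the posterior library (22 UMIs in 13 of 53 barcodes) and none in the mixed library (22 barcodes). All 22 posterior UMIs were in the 42 barcodes without the mesothelial gene Msln, at 0.805 UMIs per 10000, and none in the 11 with it. Leading genes of the posterior epithelial-like barcodes included Scgb1a1, Scgb3a1 and Wfdc2, which are known from airway epithelium, and the peptide gene Calca. The dense-core vesicle genes Chga and Chgb were found in 54.7% and 64.2% of these posterior barcodes. Slc18a1, Th and Pnmt were found in 15.1%, 9.43% and 0%. Which epithelial cells held the Npy1r UMIs was not tested further. Scgb1a1 and Wfdc2 also led the mixed epithelial-like barcodes, which held no Npy1r UMI. The edgeR fold change of 3.34 (SE 0.58, adjusted p = 0.000223), with 46% of genes called, rests on the posterior library and was -7.59 without it. Endothelial-like barcodes held 0, 1 and 0 Npy1r UMIs, and macrophage-like and glia-like barcodes none. The glial totals of 356162, 641299 and 313398 UMIs allow levels up to 0.0842, 0.0468 and 0.0957.

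**Figure D5:**
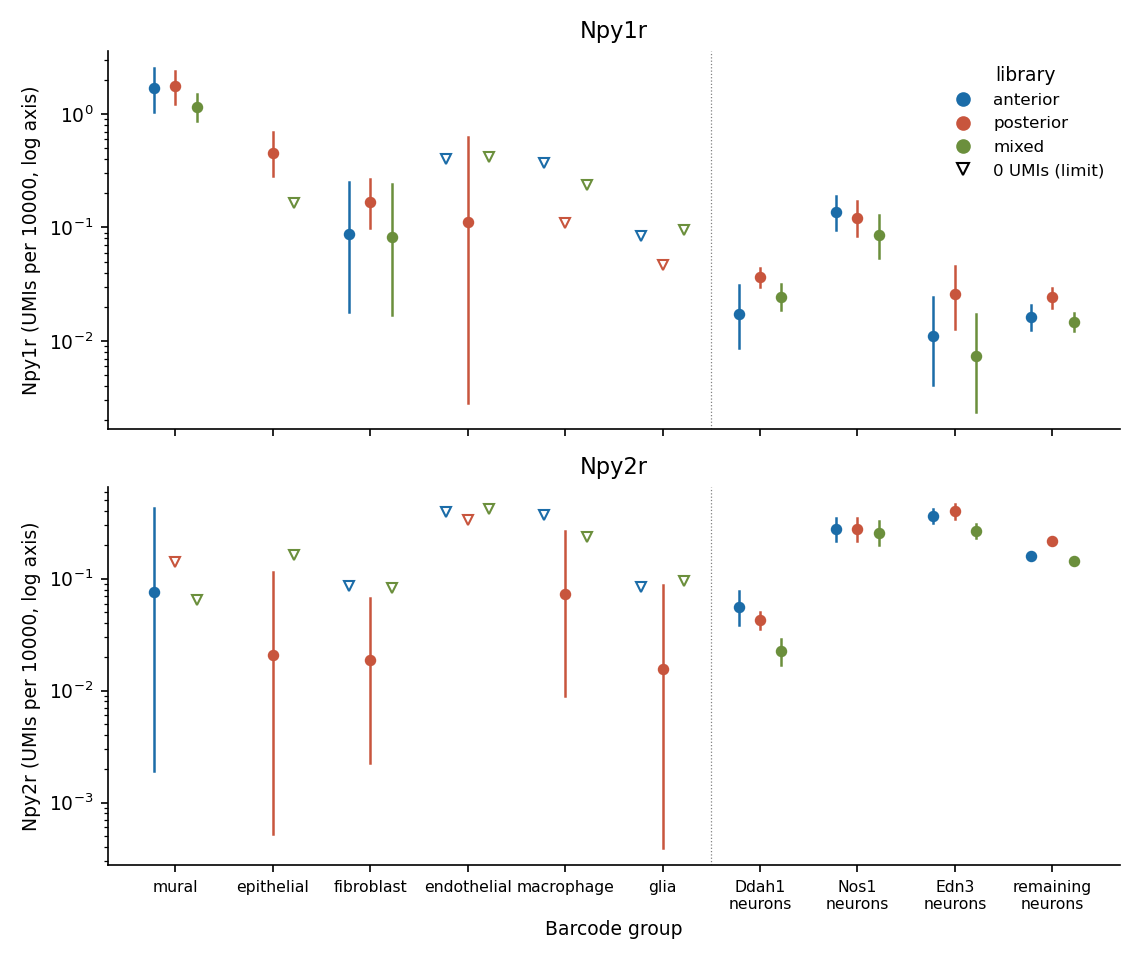
Npy1r and Npy2r levels (UMIs per 10000, log axes) in 6 marker-gated classes and 4 neuron subtypes of each library; bars are exact 95% counting intervals and open triangles the level that 3 UMIs would give where none were counted. Npy1r is highest in mural-like barcodes (1.16 to 1.75), while Npy2r has 0 to 2 UMIs in each class outside neurons.

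Npy was low in every other class, at 1.46 ± 0.383 UMIs per 10000 in glia-like, 1.06 ± 0.561 in endothelial-like, 0.896 ± 0.59 in macrophage-like, 0.771 ± 0.356 in mural-like and 0.769 ± 0.169 in fibroblast-like barcodes (SD, n = 3 libraries). These ranges overlapped one another. Epithelial-like barcodes had 0.911 (posterior) and 0.382 (mixed). Neurons as a whole had 43.1, 29.6 and 40.4. The edgeR log2 fold changes against neurons ran from -5.88 in epithelial-like (adjusted p = 1.02e-08) to -5.04 in glia-like barcodes (SE 0.35, adjusted p = 5.68e-10). Of all genes, 47.6% were called in endothelial-like (20.3% higher), 51.9% in macrophage-like and 59% in glia-like barcodes, and between 23.1% and 31.1% were lower over the 6 classes. Barcodes entered these classes only with neuron marker RNA under 1/10 of the neuron median, which partly fixes how low Npy can be.

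Other neuronal transcripts were also found in glia-like barcodes. Anterior glia-like barcodes had Npy at 3.91% of the neuron level (2.98 to 5.03), beside 4.86% for Snap25, 3.58% for Prph, 2.97% for Stmn2, 2.59% for Cartpt and 7.39% for Uchl1. In posterior glia-like barcodes Npy was at 5.69%, Snap25 at 5.61%, Prph at 5.14%, Cartpt at 4.52%, Stmn2 at 4.19% and Uchl1 at 9.31%. Mixed glia-like barcodes had Npy at 2.53%, Snap25 at 4.12%, Prph at 1.63%, Cartpt at 1.93%, Stmn2 at 1.56% and Uchl1 at 2.4%. In mixed epithelial-like barcodes Npy, at 0.945%, was below the other transcripts of this set. None of these levels is read as expression of Npy.

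Among genes that mature and break down the peptide, the convertase Pcsk2 was called in each of the 3 subtypes. Of 9 tested, Ddah1 neurons had 0 higher and 1 lower, with a list median log2 fold change of -0.01 beside 0.00 over all genes. Over all genes, 8.05% were higher and 8.63% lower in Ddah1, 4.7% and 3.02% in Nos1, and 14.3% and 9.27% in Edn3 neurons. The gene was Pcsk2, which cleaves prohormones, at -1.89 (SE 0.16, edgeR adjusted p = 2.02e-07). Pcsk2 was higher in Nos1 neurons (0.90, SE 0.17, adjusted p = 0.00265), the only 1 of 9 called there (list median 0.22, all genes -0.01). Edn3 neurons had Pcsk2 lower (-1.34, adjusted p = 0.000306), the convertase chaperone Scg5 lower (-0.28, adjusted p = 0.023) and the convertase Pcsk1 higher (0.39, adjusted p = 0.0413), with a list median of 0.06 beside 0.01. Dpp4, the peptidase that trims NPY to a form that prefers Y2 over Y1, was nearly absent from neurons (0.000385, 0.00385 and 0.00155 UMIs per 10000). Epithelial-like barcodes had 7.67, 0.186 and 2.02 UMIs per 10000, with the anterior value from 17 UMIs in 5 barcodes, and fibroblast-like barcodes 0.0289, 0.234 and 0.11. The epithelial fit, on the posterior and mixed library, gave 8.25 on the log2 scale (SE 1.15, adjusted p = 5.94e-05).

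Of 21 genes through which the receptors signal, 5 were higher and 2 lower in Ddah1 neurons (list median 0.05, all genes 0.00), where 8.05% and 8.63% of all genes were. In Nos1 neurons 3 were higher and 2 lower (0.04, all genes -0.01), beside 4.7% and 3.02% of all genes. In Edn3 neurons 6 were higher and 1 lower (0.10, all genes 0.01), beside 14.3% and 9.27%. The GIRK channel subunit Kcnj3 rose by 3.04 on the log2 scale in Ddah1 neurons (SE 0.24, edgeR adjusted p = 9.61e-08), at 13.6 CPM (UMIs per 1000000) in Ddah1 and 1.86 CPM in the remaining neurons. In Nos1 neurons it rose by 2.88 (SE 0.34, adjusted p = 2.53e-05), at 13.4 CPM in Nos1 and 1.86 CPM in the remaining neurons. Kcnj3 was called higher in Edn3 neurons too, so in each subtype. Rgs4, which shortens Gi/o signals, was higher in Ddah1 neurons (0.52, adjusted p = 0.000442) and lower in Nos1 neurons (-0.65, adjusted p = 0.00057). Cacna1b, the N-type calcium channel, was lower in Ddah1 neurons (-0.35, adjusted p = 0.0203), as was the receptor kinase Grk3 (-0.26, adjusted p = 0.0278). In Edn3 neurons Grk3 (0.49, adjusted p = 0.000533) and the adenylyl cyclase Adcy1 (0.50, adjusted p = 0.00402) were higher. The cyclase Adcy5 was higher in Nos1 neurons (0.89, adjusted p = 0.00997). Adcy1 and Adcy5 were also called higher in Ddah1 neurons, and Cacna1b was called higher in Edn3 neurons.

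Npy1r was highest in mural-like barcodes, where 24.7% of all genes were higher and 26.5% lower than in neurons. They had 3 of 18 coupling genes higher and 8 lower (list median -0.94, all genes -0.15). Those higher were Gnai2, Adcy6 (2.22, SE 0.46, edgeR adjusted p = 0.000433) and Adcy5 (4.59, SE 0.33, adjusted p = 1.23e-08). Adcy5 was at 174 CPM in mural-like barcodes and 7.46 CPM in neurons. The G protein subunit Gng3 (-5.72, adjusted p = 6.76e-09) and Cacna1b (-5.77, adjusted p = 5.67e-06), both neuronal, were among the lower. All 11 dense-core vesicle genes tested were lower, where 26.5% of all genes were. The limit on neuron RNA in this class partly fixes that neuronal genes are low.

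Among genes of other transmitters, 2 of 11 were higher and 2 lower in Ddah1 neurons (list median -0.07, all genes 0.00), beside 8.05% and 8.63% of all genes. Galanin (Gal) was higher by 3.60 on the log2 scale (SE 0.20, edgeR adjusted p = 1.79e-09) and Dbh, which makes noradrenaline, by 1.95 (SE 0.16, adjusted p = 1.76e-07). The peptide gene Cartpt (-1.40, adjusted p = 6.04e-08) and the amine-forming decarboxylase Ddc (-1.36, adjusted p = 5.58e-06) were lower beside Npy. Nos1 neurons had 3 higher and 3 lower (list median -0.17, all genes -0.01), beside 4.7% and 3.02% of all genes, with Vip at 6.78 (SE 0.46, adjusted p = 4.17e-08) and the vesicular monoamine transporter Slc18a2 at 5.53 (SE 0.53, adjusted p = 2.54e-06). Ddc (-1.14) and Th (-1.07), both catecholamine enzymes, were lower in them. Edn3 neurons had 4 higher and 1 lower (list median 0.25, all genes 0.01), beside 14.3% and 9.27% of all genes, with Cartpt at 1.19 and Dbh at 1.15 (adjusted p = 4.71e-06 and 0.00032) and the tachykinin gene Tac1 at -3.05 (adjusted p = 0.000469).

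Of 12 genes of the vesicles that carry NPY, 3 were higher and 3 lower in Ddah1 neurons (list median 0.03, all genes 0.00), beside 8.05% and 8.63% of all genes. The granin Scg2 was lower by a log2 fold change of -2.81 (SE 0.16, edgeR adjusted p = 1.98e-09) and the vesicle GTPase Rab27b by -1.13 (SE 0.10, adjusted p = 1.97e-07). Rab3c (0.83, adjusted p = 5.82e-06) and the calcium sensor Syt7 (1.80, adjusted p = 5.45e-08) were higher. In Nos1 neurons 3 were higher and 1 lower (list median -0.03, all genes -0.01), beside 4.7% and 3.02% of all genes. Scg2 was at 2.39 (SE 0.14, adjusted p = 8.76e-09) and the granin Chgb at 1.01 (adjusted p = 6.98e-05), while Rab3c was at -0.47 (adjusted p = 0.00486). Edn3 neurons had 4 higher and 2 lower (list median 0.14, all genes 0.01), beside 14.3% and 9.27% of all genes, led by the secreted peptide precursor Vgf at 1.23 (SE 0.11, adjusted p = 4.71e-06), with Scg2 at -0.74 (adjusted p = 0.00231).

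The genes whose levels ran most like Npy over the 12 profiles of 4 subtypes in 3 libraries, on log2 CPM centred within each library, among 5898 genes with at least 20 CPM, were Hand2 (Pearson r 0.987), Plcxd3 (0.984), Pcdh9 (0.981), Layn (0.980) and Hdgfl3 (0.976). Hand2, a transcription factor of autonomic neurons, averaged 198 CPM in Ddah1, 555 in Nos1, 422 in Edn3 and 424 in the remaining neurons. For Npy1r they were Fam122b (0.990), B3gnt2 (0.986), Tm4sf4 (0.979), Svil (0.976) and Prnp (0.975), and for Npy2r Dsel (0.989), Fam13c (0.987), Robo1 (0.986), Islr2 (0.985) and Cnksr2 (0.985). Profiles of a library share its depth and its cells, so these values are descriptions.

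Anterior neurons held more Npy RNA than posterior neurons as a whole, while within the Nos1 and Edn3 subtypes the summed levels were close. With 1 library per region no test of region was possible, and region cannot be told apart from library or labelled age. Npy stood at 43.1 UMIs per 10000 in anterior and 29.6 in posterior neurons, a ratio of 1.46 (1.45 to 1.47), with 40.4 in the mixed library. Medians per barcode were 42 and 22.1, with 40.1 in the mixed library. Within subtypes the ratio was 1.52 (1.47 to 1.56) in Ddah1, 0.941 (0.922 to 0.96) in Nos1, 0.978 (0.96 to 0.998) in Edn3 and 1.07 (1.07 to 1.08) in the remaining neurons. The Edn3 direction turned with the summary, with a log2 ratio of -0.03 from sums, 0.05 from means and 0.21 from medians per barcode (medians 42.6 anterior and 36.7 posterior). Ddah1 neurons made up 11.8% of anterior and 36.8% of posterior neurons, with 20.8% in the mixed library, while the remaining neurons made up 71.9%, 53.1% and 72%.

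Npy1r was lower in anterior neurons, at a ratio of 0.669 to posterior neurons (0.531 to 0.838), with 0.478 (0.232 to 0.887) in Ddah1 and 0.67 (0.477 to 0.933) in the remaining neurons. In Nos1 neurons the ratio was 1.11 (0.667 to 1.85), and in mural-like barcodes 0.959 (0.539 to 1.67), so a regional difference was not detectable at this depth there. Npy2r had a ratio of 1.09 (1 to 1.19) over all neurons but 0.745 (0.67 to 0.828) in the remaining neurons, and 0.904 (0.732 to 1.12) in Edn3 neurons.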

How the data were processed

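The deposited values are raw UMI counts per gene and barcode from 10x 3′ libraries, made with Cell Ranger, version 3.1.0 for the mixed and 6.1.2 for the anterior and posterior library per the file headers. The submitters' processing notes name Cell Ranger 7.1.0, Seurat 4.4.2 and mm10. The steps between are not given in the sources used here.

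Members and gene lists were chosen with earlier results of these data known. Neurons, subtypes and marker-gated classes (at least 3 of 5 markers, at least 1000 UMIs and 500 genes, under 20% mitochondrial UMIs) were summed per library, so the library is the replicate (n = 3). The p-values measure only how the group differences within a library vary over these libraries, with variance estimates that borrow from all genes. Counts were tested on 30406 shared genes with edgeR 4.0.16 (R 4.3.3; TMM, filterByExpr, quasi-likelihood test, Benjamini-Hochberg threshold 0.05), separately for subtypes and classes. The library was a block because the groups of a library come from the same library. The SE given with an edgeR fold change is its absolute value divided by the square root of the test's F statistic. Groups under 10 barcodes, and classes reaching 10 in fewer than 2 libraries, were not fitted. Npy5r failed the filter between subtypes, and Npy5r and Npy2r between classes. Doublets were kept. An alternative removed the highest 3% of Scrublet scores (scanpy 1.11.5), and DESeq2 1.42.0 was another. Besides the members, up to 4 called genes per list and comparison were named, by largest change in each direction, with at least 10 CPM in 1 group. A gene named for 1 subtype can also be called in another. The fit was also run on simulated counts with known fold changes but no differences between libraries. That run cannot show how the fit performs where libraries differ. Intervals and tables used Python 3.11.15 with scipy 1.17.1.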

Additional observations from a re-analysis of the deposited data

Results flagged for a closer look

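Npy1r in Edn3 neurons stood on opposite sides of the remaining neurons in the 2 sections. The log2 ratio was -0.55 in the anterior library (ratio 0.682, 0.241 to 1.57) and 0.08 in the posterior library (ratio 1.06, 0.511 to 1.98). The mixed library had a ratio of 0.498. These rest on 6, 11 and 5 Npy1r UMIs in Edn3 neurons of the anterior, posterior and mixed library. The difference between sections was not tested.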

How the results depend on the processing

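Of 102 alternative counts of called genes, 92 stayed within 1.5 times. With no replicate block, Ddah1 neurons had 420, Edn3 neurons 10 and Nos1 neurons 266 called genes, and with no filter on low counts Nos1 neurons had 1424. With 1 library left out, counts ran from 1069 to 2061 in Ddah1, 718 to 4421 in Edn3 and 451 to 1108 in Nos1 neurons. Of 246 alternative log2 fold changes of the members, 226 kept direction and call, 14 lost the call, 2 gained it and 4 reversed. With no replicate block the call was lost for Npy2r in Edn3 (0.92), Npy in Nos1 (0.65) and Npy2r in Nos1 neurons (0.62). At the subtype limit of 2 UMIs per 10000 it was gained for Npy1r in Ddah1 (0.68) and Npy in Edn3 neurons (-0.37). With 1 library left out, Nos1 neurons had 0.60 to 0.66 for Npy and 0.52 to 0.76 for Npy2r. Npy1r in endothelial-like barcodes (0.32, from 1 UMI) reversed with no limit on neuron RNA (-0.16), at a limit of 1/20 (-7.67) and without the posterior library (-7.69 to 0.77 over libraries left out). Npy1r in epithelial-like barcodes ran from -7.59 to 3.83. The anterior over posterior log2 ratio of Npy in neurons was 0.54, 0.52 without neurons holding glial RNA, 0.56 from means and 0.93 from medians per barcode. In Edn3 neurons it was -0.03, and 0.05 from means and 0.21 from medians. The endothelial calls, 1831 higher and 2468 lower by edgeR, were 2379 and 1889 by DESeq2, with a median over all genes of -0.41 and 0.11. The causes of these changes were not tested. Depth limits Npy1r, which had 5 to 35 UMIs per library in Nos1 and Edn3 neurons.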

Other observations

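Among the remaining neurons, Npy4r was higher in those with the most Npy than in those with the least. With the remaining neurons of each library cut into 4 equal parts by Npy, from lowest to highest, it stood at 0.0538, 0.0689, 0.0775 and 0.0993 UMIs per 10000 in the anterior library and at 0.0343, 0.0623, 0.0753 and 0.0955 in the posterior library. The mixed library had 0.0455, 0.0449, 0.0638 and 0.064, with no rise over its first 2 parts. The lowest posterior part had a median depth of 23946 UMIs, against 54502.5 to 62356.5 in the others, and posterior remaining neurons carried more fibroblast marker RNA (0.925 UMIs per 10000) than anterior (0.111) or mixed ones (0.0886). The part of depth and of such RNA was not tested. Npy2r went down over the same parts in the anterior library (0.207, 0.172, 0.152 and 0.117), but not in the posterior (0.2, 0.228, 0.224 and 0.205) or mixed library (0.157, 0.136, 0.143 and 0.139). These are descriptions of barcodes within a library, with no test.

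Neurons with a UMI of Th, the enzyme that starts catecholamine synthesis, after thinning had 0.235, 0.188 and 0.155 Npy2r UMIs per 10000 in the anterior, posterior and mixed library, against 0.134, 0.14 and 0.113 in those without. Npy1r was lower with Th in each library, at 0.0133, 0.0281 and 0.0122, against 0.0272, 0.0354 and 0.0215 without. Npy was lower in neurons with Dbh, at 37.8, 23.4 and 29.5 UMIs per 10000, against 45.6, 35.5 and 44.9 without. These splits ran over all neurons and were not made within subtypes. Dbh was called higher in Ddah1 and Edn3 neurons, and Th higher in Edn3 and lower in Nos1 neurons. The part of the subtypes in these splits was not tested. Barcodes that met neither the neuron nor a class gate, 672, 1425 and 514, had 22, 16 and 7.67 Npy UMIs per 10000 at median depths of 2189.5, 1178 and 2665.5 UMIs.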
